A study of Mus musculus with 9 samples.

Results

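The genes described here are 9 regulators of the enteroendocrine lineage of the gut: the transcription factors Neurog3, Neurod1, Pax4, Pax6, Insm1, Isl1, Nkx2-2 and Rfx6, and the neural RNA-binding gene Elavl4. They were taken by their symbol, and all 9 were found among the 46095 gene symbols of the count table. RNA-seq was performed on intestinal epithelial cells (IECs) released from the colon with EDTA, in 4 libraries from Smad4 Vil-KO mice (S-1 to S-4 in the labels, genotype Smad4-knockout) and 5 from mice that also lack Setd2 (DDKO-1 to DDKO-5, genotype Smad4-knockout;Setd2-knockout). In both groups a Cre recombinase driven by the Villin promoter deletes floxed Smad4 in the intestinal epithelium, and only the latter group also lacks epithelial Setd2, the enzyme that trimethylates lysine 36 of histone H3. All mice were on a C57BL/6j background, received the carcinogen AOM (10 mg/kg) at 8 weeks of age followed by drinking water with 2% DSS, a chemical that damages the colon lining, and IECs were collected at day 10. No wild-type library belongs to the series, so every difference below is between mice that already lack epithelial Smad4. Villin-Cre leaves the floxed genes intact in cells outside the epithelium, which an EDTA preparation can carry along.

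Enteroendocrine cells are the rare hormone-producing cells of the intestinal epithelium. They arise from crypt progenitors that escape Notch signalling, express Atoh1 and then switch on Neurog3 for a short time, and Neurog3 in turn starts a cascade of factors that fix the endocrine fate and choose the hormones that a cell makes. Neurod1, Insm1, Pax4, Pax6, Isl1, Nkx2-2 and Rfx6 act within this cascade, as they do in pancreatic islets, and ELAVL4 (HuD) is an RNA-binding protein of neurons that endocrine cells share.

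Total counts per library were 12487129 to 17120202, and levels are given as CPM, counts scaled to library size after TMM normalization, on which 1 count equalled 0.0594 to 0.0794 CPM. The 9 genes were rare transcripts, with 3 to 100 counts per library and 89 to 327 counts for all 9 together. None was at the count floor, defined as 3 or fewer counts in each library of a genotype, but 18 of the 81 counts were under 10. Elavl4 in S IECs (3 to 8 counts), Pax4 in both genotypes (3 to 14 counts) and Pax6 in both genotypes (5 to 15 counts) were nearest to it. The epithelial identity of the preparation was seen in the summed level of 7 epithelial genes, Epcam and Krt8 among them, 10202 to 11504 CPM in S and 9937 to 11745 CPM in DDKO libraries, with none of the 7 called between the genotypes. Setd2 itself fell from 113 ± 9.45 to 66.1 ± 14.7 CPM (SD, n = 4 and 5; log2 fold change -0.77, edgeR adjusted p = 0.00756), Smad4, deleted in both groups, was at 64.2 ± 19.0 and 70.3 ± 34.4 CPM, and these counts cover the whole gene, not the deleted part alone. Of the 5 DDKO libraries, DDKO-1, DDKO-2 and DDKO-5 held 3857 to 4907 counts of 4 Y-linked genes. The other 6 libraries of the series held 0 to 28. Xist had 5, 6 and 5 counts in those DDKO libraries and 17833 to 26617 in the other 6. By these counts males occur only among the DDKO libraries, and all S libraries are female. The calls of the 9 genes and of the gene lists were therefore also made in a fit that included the presence of Y-linked counts, and in the 6 libraries alone. Both fits compare the genotypes through DDKO-3 and DDKO-4 against the 4 S libraries, so they are not independent checks.

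Elavl4, Neurod1 and Rfx6 were higher in DDKO IECs, and none of the 9 genes was lower. These were 3 of the 8 genes that passed the filter on low counts at an adjusted p under 0.05 (quasi-likelihood test of edgeR, adjusted by Benjamini-Hochberg for the 14593 genes tested), where 13.3% of all genes tested were called, 6.76% higher and 6.54% lower. The same 3 were those whose 5 DDKO libraries all lay above all 4 S libraries, while 8.34% of all genes tested were higher without overlap, 8.87% lower and 17.2% either. An unadjusted p under 0.05 was reached by 5 of the 8 (the 3 and Insm1 and Pax6) and by 30.6% of all genes tested, and the fitted change was above 0 in all 8 and in 50% of all genes tested. The other 5 tested genes had log2 fold changes of 0.11 to 1.33 that did not pass the test, and Pax4 was removed by the filter. Elavl4 and Pax6 passed the filter through the DDKO libraries alone, since no S library reached its level of 0.697 CPM in either gene, and such genes can pass only where they are higher in one group. Neurod1 and Nkx2-2 reached it in 2 and 3 S libraries and in all 5 DDKO libraries, so that the S libraries alone would not have passed them either. Since RNA was taken from bulk IECs, more enteroendocrine cells and more RNA of these genes per cell cannot be told apart. In the same libraries 7 small intestinal enterocyte genes summed to 20.1 to 46.2 CPM in S and 182 to 728 CPM in DDKO, while Mep1a, the most abundant gene of that list, was at 333 to 364 CPM and 139.9 to 378 CPM. Their part in the levels of the 9 genes was not tested.

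**Figure D1:**
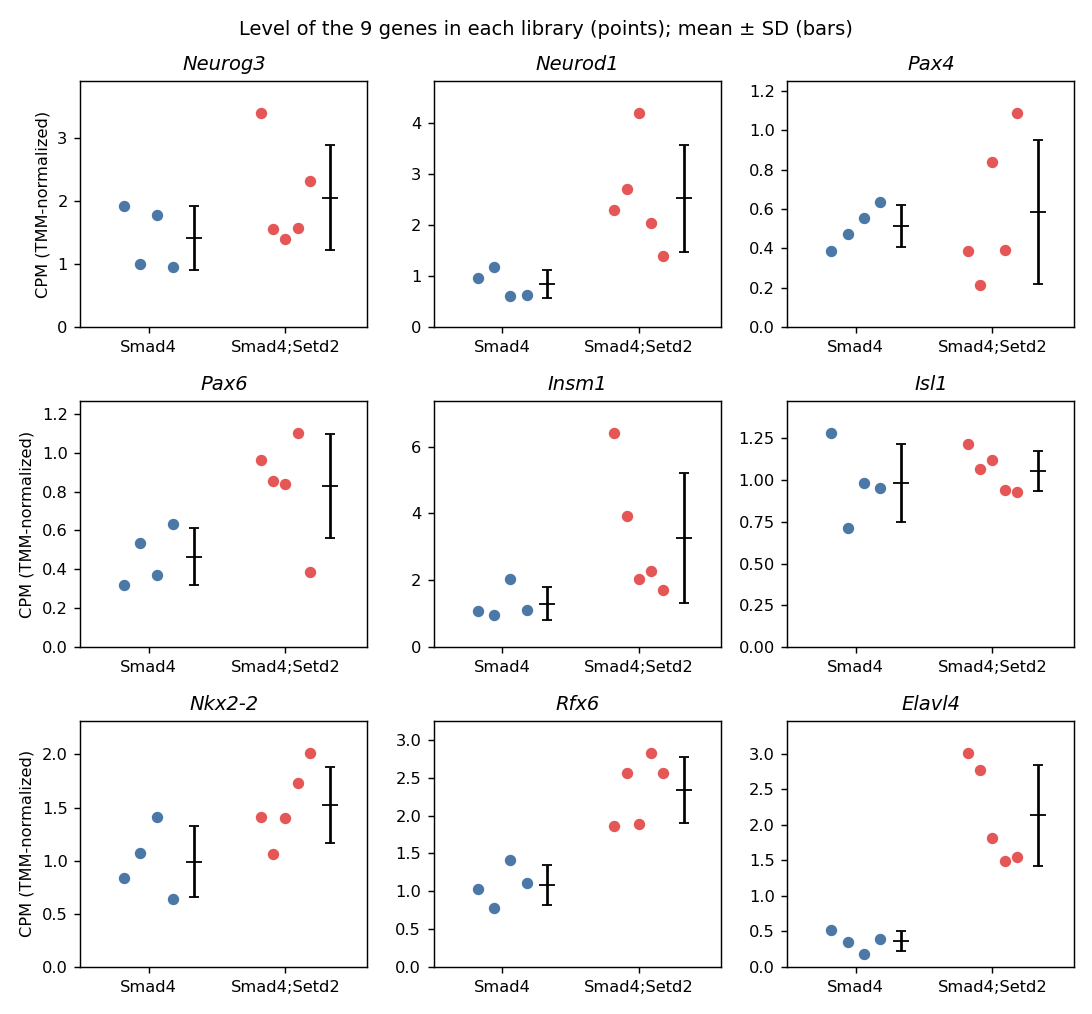
Level of each of the 9 genes in CPM (vertical axes, which start at 0) in the 4 S libraries (Smad4 Vil-KO, blue) and the 5 DDKO libraries (red), in the order of their numbers from left to right, with mean ± SD in black. The red points of Neurod1, Rfx6 and Elavl4 lie above all blue points, while those of the other 6 genes overlap with them.

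The DNA before the transcription starts of the 3 genes that rose is shown, since these are the genes that passed the test. RefSeq promoters (GRCm38.p6) were matched for 7 of the 9 genes, and Pax4 and Insm1 were not matched. Each window is the 250 bases before a start, printed 5′ to 3′ on the strand of the gene. For Neurod1, whose GENCODE start lies within the window, the 135 bases before that start are printed. The RefSeq start of Rfx6 lies inside the GENCODE span of the gene, downstream of its first GENCODE start. Capitals mark every E-box (CANNTG, which reads the same on both strands), the hexamer bound by bHLH factors such as NEUROG3 and NEUROD1. The 250 bases before 66.2% of the 32851 RefSeq starts hold at least 1 E-box, and 14.4% hold the form CAGATG or its complement CATCTG.
Neurod1, chr2:79456752-79456886, minus strand: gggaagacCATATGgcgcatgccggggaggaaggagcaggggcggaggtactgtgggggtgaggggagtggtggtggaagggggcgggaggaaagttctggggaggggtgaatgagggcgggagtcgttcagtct
Rfx6, chr10:51685268-51685517, plus strand: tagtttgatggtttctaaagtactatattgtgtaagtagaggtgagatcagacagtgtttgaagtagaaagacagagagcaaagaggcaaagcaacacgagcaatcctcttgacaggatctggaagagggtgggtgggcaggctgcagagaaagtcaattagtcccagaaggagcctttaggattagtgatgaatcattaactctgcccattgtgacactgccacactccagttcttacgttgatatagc
Elavl4, upstream start, chr4:110351912-110352161, minus strand: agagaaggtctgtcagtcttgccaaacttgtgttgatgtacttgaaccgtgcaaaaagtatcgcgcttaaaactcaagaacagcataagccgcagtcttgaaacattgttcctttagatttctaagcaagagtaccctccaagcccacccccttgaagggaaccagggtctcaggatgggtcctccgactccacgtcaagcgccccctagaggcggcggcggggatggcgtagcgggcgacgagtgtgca
Elavl4, first internal start, chr4:110287528-110287777, minus strand: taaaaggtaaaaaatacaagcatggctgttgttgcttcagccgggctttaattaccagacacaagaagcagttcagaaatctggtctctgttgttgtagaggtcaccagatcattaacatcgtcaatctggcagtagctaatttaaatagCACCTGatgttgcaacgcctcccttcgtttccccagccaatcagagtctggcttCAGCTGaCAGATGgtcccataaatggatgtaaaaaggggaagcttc
The whole Neurod1 window held 1 E-box (CATATG), and those of Rfx6 and of the upstream Elavl4 start held 0. The window before the first internal Elavl4 start held 3 E-boxes, of which CAGCTG and CAGATG are separated by a single base. RefSeq lists 4 starts for Elavl4, of which the next internal one holds the same 3 E-boxes in a largely shared window and the last holds 1 (CATCTG), and counts per gene do not show which of them was used. These matches describe letters in the windows and no binding was measured.

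Neurog3, the factor that starts the endocrine program, overlapped between the genotypes. It was at 1.92, 1.01, 1.78 and 0.953 CPM in S-1 to S-4 and at 3.40, 1.57, 1.40, 1.57 and 2.33 CPM in DDKO-1 to DDKO-5. The means were 1.42 ± 0.507 and 2.05 ± 0.833 CPM (SD, n = 4 and 5). The log2 fold change was 0.53 (SE 0.36, edgeR adjusted p = 0.3346). The 95% interval of the fold was 0.839 to 2.48, so that neither no change nor a doubling lies outside it. With the term for Y-linked counts the log2 fold change was 0.06. Whether Neurod1 or Elavl4 changed more than Neurog3 was not tested. Neurog3 lies at chr10:62133090-62134763 on the plus strand of GRCm38 (GENCODE M21), with Fam241b across it on the opposite strand.

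Neurod1 is a bHLH factor that NEUROG3 induces and that enteroendocrine cells keep as they mature. Its levels were 0.962, 1.19, 0.614 and 0.635 CPM in S-1 to S-4, from 8 to 20 counts. They were 2.31, 2.70, 4.19, 2.04 and 1.40 CPM in DDKO-1 to DDKO-5, from 18 to 60 counts, and DDKO-5 lay nearest to the S libraries. Neurod1 rose from 0.850 ± 0.276 to 2.53 ± 1.05 CPM (SD, n = 4 and 5). The log2 fold change was 1.56 (SE 0.37, edgeR adjusted p = 0.0205), which is 2.94-fold with a 95% interval of 1.68 to 5.15. The adjusted p was 0.052, 0.0741 and 0.0595 without S-1, S-3 and S-4, and it ranged from 0.00219 to 0.0741 over the 18 alternatives that tested it. With the term for Y-linked counts the log2 fold change was 1.86 (edgeR adjusted p = 0.0239), and among the libraries without them 1.87 (edgeR adjusted p = 0.0138). Neurod1 lies at chr2:79452521-79456751 on the minus strand, and GENCODE M21 places a transcript of Cerkl across it on the same strand. Cerkl had 3, 0, 4 and 3 counts in S-1 to S-4 and 22, 26, 9, 24 and 7 in DDKO-1 to DDKO-5, and how the counting divided reads between them is not given in the sources used here.

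Insm1, a zinc-finger factor of early endocrine cells, did not pass the test although its fitted change was 2.52-fold. Its levels were 1.09, 0.951, 2.03 and 1.11 CPM in S-1 to S-4 and 6.41, 3.91, 2.03, 2.28 and 1.71 CPM in DDKO-1 to DDKO-5. S-3 reached the level of the lower DDKO libraries, and DDKO-1 and DDKO-2, with 100 and 55 counts, stood above the rest. The log2 fold change was 1.33 (SE 0.44, 95% interval 0.37 to 2.29, edgeR adjusted p = 0.0674). It passed with DESeq2 (adjusted p = 0.0232) and without DDKO-5 (edgeR adjusted p = 0.0344), and fell to 0.73 with the term for Y-linked counts (edgeR adjusted p = 0.3965). The variance of its depth-scaled counts among the DDKO libraries was 17.0 times the mean, where counting error alone gives a ratio of 1, and in the same libraries this ratio was 6.28 for Neurod1, 4.92 for Neurog3, 3.47 for Elavl4, 3.30 for Pax4, 1.20 to 1.26 for Pax6, Nkx2-2 and Rfx6, and 0.202 for Isl1. Insm1 is a gene of a single exon at chr2:146221921-146225020 on the plus strand.

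Pax4, a paired-homeodomain factor that acts in setting endocrine subtypes, had 6, 8, 9 and 8 counts in S-1 to S-4 and 6, 3, 12, 5 and 14 counts in DDKO-1 to DDKO-5. The latter libraries spread on both sides of the former. The means were 0.512 ± 0.107 and 0.583 ± 0.364 CPM (SD, n = 4 and 5), and a two-sided exact permutation test of the library labels gave p = 0.6905, where 0.00794 is the smallest p it can give. When the filter on low counts was left out, the log2 fold change was 0.17 (SE 0.52, edgeR adjusted p = 0.8665). Pax4 lies at chr6:28442334-28449353 on the minus strand.

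Nkx2-2 and Pax6, homeodomain factors that act on hormone choice, had fitted changes above 0 that did not pass the test. Nkx2-2 was at 0.834, 1.07, 1.41 and 0.635 CPM in S-1 to S-4 and at 1.41, 1.07, 1.40, 1.73 and 2.02 CPM in DDKO-1 to DDKO-5 (log2 fold change 0.61, SE 0.31, edgeR adjusted p = 0.213). Pax6 was at 0.321, 0.535, 0.368 and 0.635 CPM and at 0.961, 0.854, 0.839, 1.10 and 0.388 CPM in the same order (log2 fold change 0.84, SE 0.38, unadjusted p = 0.0479 and edgeR adjusted p = 0.1595). For Pax6 only DDKO-5, with 5 counts, lay within the S range, and without it the log2 fold change was 1.03 (edgeR adjusted p = 0.0561). Pax6 (chr2:105668900-105697364, plus strand) and Nkx2-2 (chr2:147177546-147194243, minus strand) are both overlapped by antisense genes in GENCODE M21, of which Pax6os1 had 0 counts in S and 6 in DDKO libraries and Nkx2-2os had 0 in all.

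Isl1, a LIM-homeodomain factor, differed least between the genotypes among the 8 tested genes. It was at 1.28, 0.713, 0.983 and 0.953 CPM in S-1 to S-4 and at 1.22, 1.07, 1.12, 0.944 and 0.931 CPM in DDKO-1 to DDKO-5, and each of the latter values lay within the range of the former. The log2 fold change was 0.11 (SE 0.27, edgeR adjusted p = 0.8204), with a 95% interval of the fold of 0.713 to 1.63. Its sign turned without S-2 (log2 fold change -0.026). Isl1 lies at chr13:116298281-116309689 on the minus strand.

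Rfx6, a winged-helix factor needed for hormone expression in the gut and in islets, rose least among the 3 and had the smallest SE of them. S-1 to S-4 were at 1.03, 0.773, 1.41 and 1.11 CPM, from 13 to 23 counts. DDKO-1 to DDKO-5 were at 1.86, 2.56, 1.89, 2.83 and 2.56 CPM, from 27 to 36 counts, so that the groups did not overlap. Its mean rose from 1.08 ± 0.264 to 2.34 ± 0.440 CPM (SD, n = 4 and 5). The log2 fold change was 1.11 (SE 0.27, edgeR adjusted p = 0.0232), which is 2.15-fold with a 95% interval of 1.43 to 3.25. The size of the change moved little, from 0.97 to 1.27 over 19 alternatives, but the adjusted p was 0.0665, 0.0727 and 0.0568 without S-1, S-2 and S-4. It was 0.0723 with the term for Y-linked counts, 0.0569 among the libraries without them and 0.0521 without the filter on low counts, in a range of 0.007 to 0.0811. Of the other RFX factors, Rfx1 was lower (log2 fold change -0.55, edgeR adjusted p = 0.0223) and Rfx2, Rfx3, Rfx5 and Rfx7 had log2 fold changes of -0.41 to 0.15 that did not pass it. Rfx6 lies at chr10:51677756-51730432 on the plus strand.

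Elavl4 stabilizes and directs the splicing of neuronal transcripts, and it was the member with the largest fitted change. It had 8, 6, 3 and 5 counts in S-1 to S-4 (0.513, 0.357, 0.184 and 0.397 CPM) and 47, 39, 26, 19 and 20 counts in DDKO-1 to DDKO-5 (3.01, 2.77, 1.82, 1.49 and 1.55 CPM). The lowest level of the latter group was thus well above the highest of the former. The mean rose from 0.363 ± 0.136 to 2.13 ± 0.713 CPM (SD, n = 4 and 5). The log2 fold change was 2.54 (SE 0.38, edgeR adjusted p = 0.0027), which is 5.81-fold with a 95% interval of 3.25 to 10.4. It kept an adjusted p under 0.05 in all 18 alternatives that tested it, with log2 fold changes of 2.18 to 2.76. The change was 2.18 with the term for Y-linked counts and among the libraries without them, fits that rest on the same DDKO libraries. The gene lies at chr4:110203722-110351909 on the minus strand of GRCm38 (GENCODE M21), and no other annotated gene overlaps it.

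Elavl4 is also a gene of enteric neurons, so the neuronal content of the libraries was read beside it. Of 12 enteric neuron markers, 6 had at most 3 counts in every library, 2 passed the filter (Ret, log2 fold change 0.18, and Chat, -0.11) and neither was called. The summed level of the 12 was 3.72 to 5.70 CPM in S and 3.08 to 5.82 CPM in DDKO libraries. Most of it came from Ret (means of 2.56 and 2.90 CPM) and Chat (0.908 and 0.855 CPM). The remaining genes with over 3 counts in a library went both ways. Tubb3 had 5 and 15 counts over the S and DDKO libraries and Stmn2 4 and 12, while Uchl1 had 23 and 8 and Phox2a 8 and 3. Whether neuronal content differed was not tested. The glial factor Sox10 had 0 counts in all 9 libraries, and the 4 glial markers summed to 0.773 to 1.99 CPM in S and 0.629 to 1.09 CPM in DDKO libraries. The neural paralogs Elavl2 and Elavl3 were removed by the filter, with 2 and 4 counts over the S libraries and 23 and 12 over the DDKO libraries. Elavl1 (HuR), the paralog found in all cells, had a log2 fold change of 0.04 (edgeR adjusted p = 0.831).

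**Figure D2:**
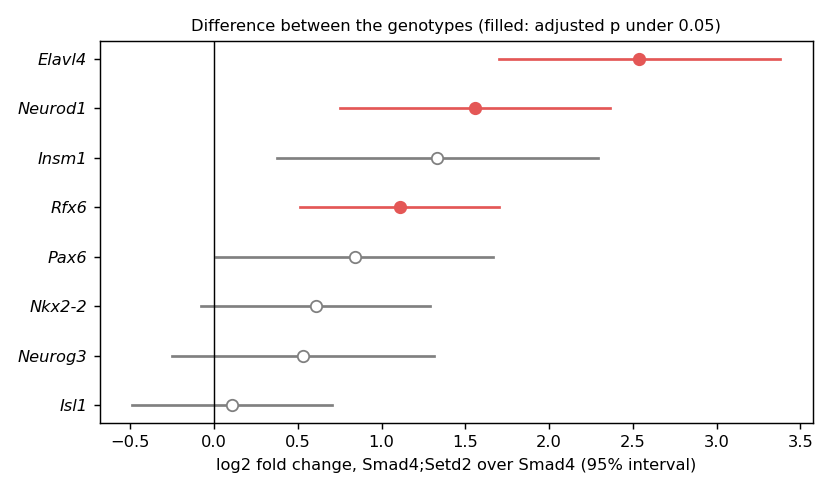
Log2 fold change of the 8 tested genes, DDKO over S (horizontal axis), with 95% intervals from edgeR's quasi-likelihood test, in which filled red points have an adjusted p under 0.05. All 8 estimates are above 0, and the intervals of Nkx2-2, Neurog3 and Isl1 include 0.

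Levels were also set per kb of exon (GENCODE M21) so that the genes could be ordered. Among S libraries Neurog3 was highest with 0.847 ± 0.303 CPM per kb, followed by Insm1 (0.418 ± 0.159), Pax4 (0.354 ± 0.0740), Nkx2-2 (0.344 ± 0.116), Neurod1 (0.311 ± 0.101), Rfx6 (0.2695 ± 0.0658) and Isl1 (0.248 ± 0.0590, all SD, n = 4). The range of Insm1 reached that of Neurog3, and from Insm1 to Isl1 each neighbour differed by less than 1 SD, while Elavl4 (0.0673 ± 0.0253) and Pax6 (0.0397 ± 0.0125) lay below all other genes in every library. Among DDKO libraries Neurog3 (1.23 ± 0.498), Insm1 (1.05 ± 0.6296) and Neurod1 (0.927 ± 0.383, all SD, n = 5) had overlapping ranges at the top. Elavl4 reached 0.395 ± 0.132 there, with a range of 0.277 to 0.559, which overlapped with those of every gene but Neurog3 and Pax6, and Pax6 remained the lowest at 0.0709 ± 0.0229 CPM per kb. Pax6 has the greatest exonic length of the 9, 11694 bases over 26 annotated transcripts.

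**Figure D3:**
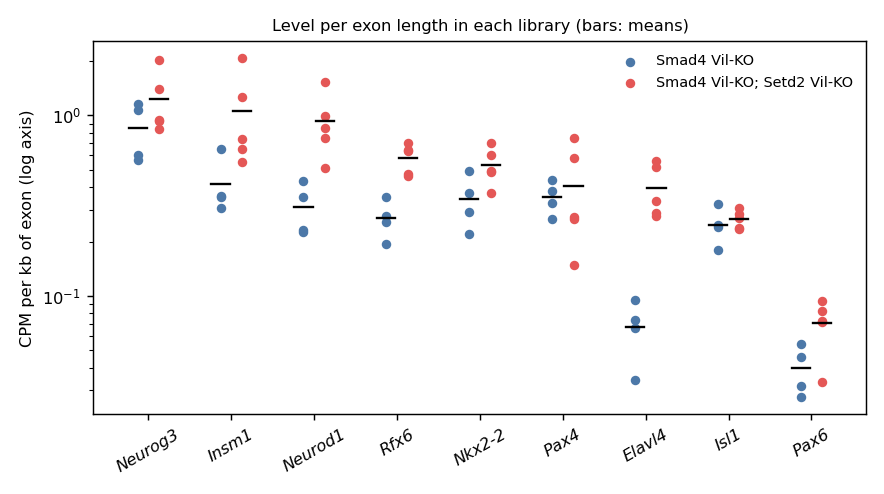
Level of each gene per kb of annotated exon (vertical log axis) in the S libraries (blue) and the DDKO libraries (red), with the means as black bars, ordered by the mean of the latter group. Elavl4 moves from among the 2 lowest genes to the range of Pax4 and Isl1, and Pax6 is lowest in the red group.

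The rest of the lineage was read from lists that hold none of the 9 genes. Among the hormones, granins and processing enzymes, 10 of 20 tested genes were higher and 0 lower, with a median log2 fold change of 1.32. Of all genes tested, 6.76% were higher and 6.54% lower. The granin Chga, the defining marker of enteroendocrine cells, rose from 14.4 ± 3.41 to 52.8 ± 10.8 CPM (log2 fold change 1.87, edgeR adjusted p = 0.000405) and Chgb from 33.7 ± 11.3 to 101 ± 17.6 CPM (1.58, edgeR adjusted p = 0.00165). The others that rose were Ghrl (ghrelin, log2 fold change 3.44), Nts (neurotensin, 2.07), Cck (cholecystokinin, 1.78), Tph1 of serotonin synthesis (1.48), the amine transporter Slc18a1 (1.25), the granins Scg2 (1.41) and Scg3 (1.48) and the peptide-processing enzyme Cpe (1.47). With 4 to 11 counts per S library, Ghrl, Nts and Cck passed the filter through the DDKO libraries alone, like Elavl4. Such genes can pass only where they are higher in one group. The peptide-processing enzyme Pcsk1 did not pass, at 18.1 ± 2.93 and 14.6 ± 3.27 CPM (log2 fold change -0.31, edgeR adjusted p = 0.2655). Others that did not pass included the L-cell hormones Gcg (log2 fold change 0.12), Pyy (0.75) and Insl5 (-0.63), the tachykinin gene Tac1 (-1.08) and Sst (-0.50).

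Among 15 other transcription factors of the lineage 12 were tested, of which 2 were higher and 1 was lower, with a median log2 fold change of 0.26. Myt1, a zinc-finger factor of endocrine progenitors, rose from 0.838 ± 0.320 to 2.46 ± 0.630 CPM (log2 fold change 1.54, edgeR adjusted p = 0.0144). Etv1 rose from 0.735 ± 0.283 to 1.77 ± 0.489 CPM (1.26, adjusted p = 0.0327), and the forkhead factor Foxa2, which is not restricted to endocrine cells, fell from 36.6 ± 3.54 to 22.9 ± 3.75 CPM (-0.67, adjusted p = 0.00737). Of the secretory vesicle genes, Rab3c (log2 fold change 1.99) and Syt13 (0.86) were higher, and 8 of the 11 tested were not called. Rab3c, with 8 to 10 counts per S library, also passed the filter through the DDKO libraries alone. Upstream of Neurog3, the Notch ligand Dll1 was higher (log2 fold change 0.52, edgeR adjusted p = 0.0308) and Sox9 lower (-0.46, adjusted p = 0.0439), while Atoh1 (-0.30, adjusted p = 0.2108) and Hes1 (-0.08, adjusted p = 0.7287) were among the 9 of 11 tested Notch and secretory fate genes that were not called. Rest, the repressor that keeps neuronal genes silent outside neurons, had a log2 fold change of -0.09 (edgeR adjusted p = 0.6442), and of the 8 genes of its corepressor list only Hdac1 was called (0.67, higher).

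Of the 27 genes called in these lists and in the paralog and cell type lists, 19 were also called in the fit with the Y-linked term and 24 in the libraries without Y-linked counts, and none turned its direction. The granins, Ghrl, Nts, Tph1, Slc18a1, Cpe, Myt1, Foxa2 and Rab3c were called in both, though both rest on the same DDKO libraries. Etv1 (edgeR adjusted p = 0.2212 and 0.2131), Syt13 (0.1159 and 0.1054) and Dll1 (0.2212 and 0.1561) were called in neither. Those not called with the term alone included Cck (edgeR adjusted p = 0.0934), Sox9 (0.1502), Anpep (0.1467) and the colonocyte gene Slc37a2 (0.0594).

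**Figure D4:**
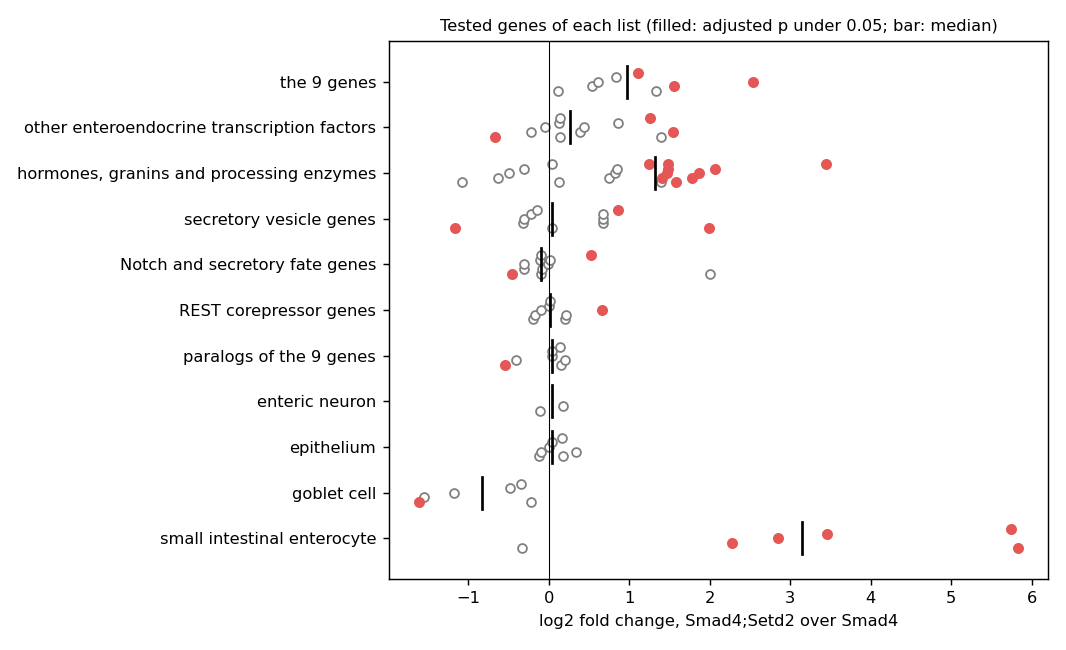
Log2 fold change of every tested gene (points, DDKO over S) in 11 gene lists, with filled points for an adjusted p under 0.05 and black bars for the list medians. The hormone list has 10 filled points to the right of 0, the 9 genes have 3, and the Notch, REST, paralog, neuron and epithelium lists have medians between -0.09 and 0.04.

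The paralogs of the 9 genes served to see whether near relatives moved with them. Of 20 paralogs 7 were tested (Pax5, Pax8, Rfx1, Rfx2, Rfx5, Rfx7 and Elavl1), with 0 higher, 1 lower (Rfx1) and a median log2 fold change of 0.04. The neural paralogs Elavl2 (2 counts over the S and 23 over the DDKO libraries) and Elavl3 (4 and 12) were removed by the filter. They are therefore not part of that median. Neurog1, Neurog2, Neurod4, Insm2 and Nkx2-9 had no count in any library, which allows at most 0.178 to 0.238 CPM per library (3 counts, counting error only), and Neurod2 and Neurod6 had at most 6 and 1 counts.

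Counts of each gene were also expressed per 100 counts of Chga in the same library, as a description without a test. Isl1 had 4.01 to 9.95 counts per 100 Chga counts in S and 1.57 to 2.60 in DDKO libraries. Nkx2-2 had 6.02 to 8.46 in S and 1.70 to 5.13 in DDKO libraries, and Pax6 had 2.21 to 6.11 in S and 0.986 to 1.95 in DDKO libraries. For these 3 genes the groups did not overlap, as for 89% of all genes tested, which were lower without overlap on this ratio. All the other genes overlapped: Neurod1 (3.68 to 7.46 and 3.40 to 9.74), Insm1 (5.35 to 12.13 and 3.796 to 10.9), Elavl4 (1.10 to 3.98 and 2.49 to 5.10), Neurog3 (5.69 to 14.9 and 2.50 to 5.92), Pax4 (2.68 to 6.11 and 0.341 to 2.76) and Rfx6 (4.35 to 10.7 and 3.15 to 6.51). What these overlaps reflect was not tested. Against Chgb the groups were apart for Isl1 and Nkx2-2 but not for Pax6, and 83.7% of all genes tested were lower without overlap. Since the levels of Chga and Chgb rose, these ratios fall for any gene that did not change, and the separation of 3 or 2 genes says nothing particular about them.

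**Figure D5:**
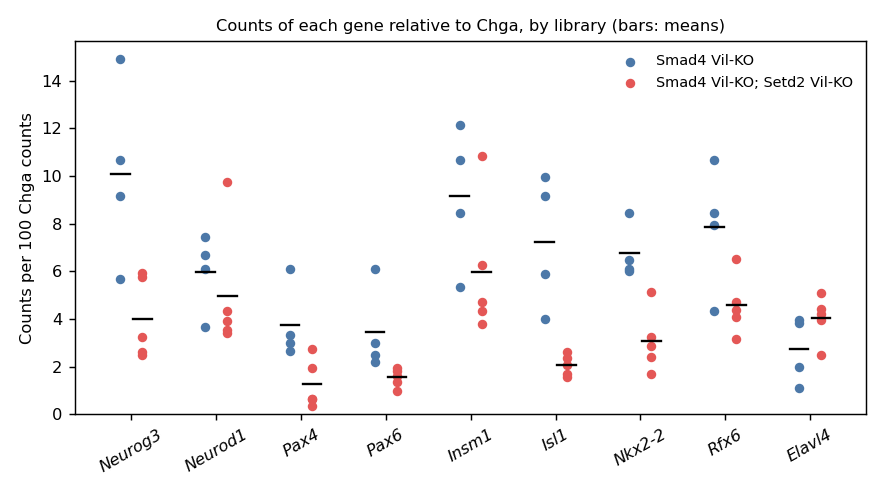
Counts of each gene per 100 counts of Chga in the same library (vertical axis from 0), S in blue and DDKO in red, with the means as black bars. The red points of Pax6, Isl1 and Nkx2-2 lie below all blue points of the same gene, and the mean of Elavl4 is the only one that is higher in red.

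Other cell types in the preparation were read from their marker lists. Small intestinal enterocyte genes moved in the same direction, with 5 of 6 tested genes higher, namely the disaccharidase Sis (log2 fold change 5.75), Enpep (5.84), the bile acid transporter Slc10a2 (3.46), the bile acid-binding Fabp6 (2.84) and Anpep (2.28), and Mep1a not called (-0.34). Of 6 goblet cell genes the mucin Muc2 was lower (log2 fold change -1.62), of 6 colonocyte genes Slc37a2 was lower (-1.50), and the others were not called. None of the 4 tested tuft cell genes was called (Dclk1 -0.67 and Trpm5 -0.80 were the most abundant). Mesenchyme genes summed to 11.8 to 28.4 CPM in S and 19.4 to 58.3 CPM in DDKO libraries with 0 of 4 tested called (Dcn 1.35 and Col3a1 0.78), and leukocyte genes to 56.4 to 150 CPM and 51.3 to 103 CPM with 0 of 9 called (Ptprc 0.21 and Lyz2 -0.92). The pancreas genes, Ins1 and Ins2 among them, had no count in any library. Their part in the levels of the 9 genes was not tested.

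For the 7 of these genes that were tested and had a mean of at least 1 CPM the genes of most similar pattern were sought among all genes tested, by the root mean square difference of log2 CPM over the 9 libraries after each gene's own mean was taken off. Nearest to Elavl4 was Spire1 (0.289 on the log2 scale), followed by Gm35466 (0.351) and Gm29684 (0.352). Neurod1 was nearest to Trpc1 (0.275), Vegfd (0.303) and Syt10 (0.322), and Rfx6 to Adhfe1 (0.181), Ahi1 (0.217) and P2ry4 (0.232). Of the genes that did not pass the test, Insm1 was nearest to Gm5481 (0.232), Cxcl11 (0.279) and Ppfia4 (0.280), Neurog3 to Mtmr7 (0.198), Gm38609 (0.206) and Gm7774 (0.229), Nkx2-2 to Ccdc108 (0.195), Rimbp3 (0.201) and Prkrip1 (0.202), and Isl1 to Ankrd39 (0.112), Inpp5f (0.120) and Iqgap1 (0.123). None of the 3 nearest genes of these 7 was another of the 9 genes, and Pax4, which was not tested, could not be one.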

How the data were processed

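RNA-seq was analysed from colon IECs, in 4 libraries without Smad4 (S) and 5 without Smad4 and Setd2 (DDKO), grouped by the genotype label. The authors deposited whole-number counts per gene symbol, not normalized or pooled; the submitters' processing notes name HISAT2 2.0 and mm10, and the counting program, annotation and strand setting are not given in the sources used here. Of the 46095 symbols, 27 are dates (a spreadsheet conversion) and stayed unnamed. Libraries of 1 genotype differed beyond sampling noise; the labels do not say that each came from its own mouse, so p-values measure only the spread between these libraries, which may be technical.

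Genes were kept with filterByExpr (14593), normalized with TMM and tested with the quasi-likelihood test of edgeR 4.0.16 (R 4.3.3) without covariates, with Benjamini-Hochberg adjustment. The SE of a log2 fold change is its size divided by the square root of the F statistic. Alternatives were DESeq2 1.42.0, limma-voom (3.58.1) with quality weights, robust dispersion, other scalings and filters, each library left out, a replicate block, and a term for or exclusion of libraries with over 1000 Y-linked counts, which for the other lists was added after seeing the data. The method was tested on simulated data. Intervals are 95% and cover, like the floor of 3 counts, no error in the preparation.

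All 9 genes are named whatever their values. Of the other lists, genes with an adjusted p under 0.05 are named and, where none passed, the 2 most abundant; other genes, such as Atoh1, Hes1, Rest and the hormones that did not pass, were named after their values were seen, and a few genes of the lists, at least 1 of them called lower, are not reported here. The 3 most similar genes are those with the smallest root mean square difference of log2 CPM (prior count 2). The genes, lists and alternatives were chosen with earlier results of these data known.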

Additional observations from a re-analysis of the deposited data

Results flagged for a closer look

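In groups of 4 and 5 libraries, the library farthest from the rest was compared with Dixon's 95% critical value for 38 genes, the 9 enteroendocrine genes among them, in 76 groups. Chance flags about 1 in 20 groups, and 6 were flagged. Of the 9 genes only Insm1 was among them, at 2.03 CPM in S-3 against 0.951 to 1.11 CPM in the other 3 libraries of that genotype. Etv1 stood out in S-1 (1.16 CPM against 0.535 to 0.635), and Syt13 in S-4 (0.714 CPM against 1.25 to 1.35). Cpe stood out in DDKO-4 (45.1 CPM against 17.2 to 23.9), and Rfx1 in S-4 (27.4 CPM against 35.5 to 36.9). Smad4 itself, deleted in both groups, was at 92.7 CPM in S-1 and at 54.3 to 55.4 CPM in the other 3.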

How the results depend on the processing

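The number of the 9 genes called was 3, all higher. It was 1 with at least 10 counts in every library, where 4 of them could be tested and Rfx6 was called, 1 at an adjusted p under 0.01 (Elavl4), and between 1 and 4 with single libraries left out, with 1 (Elavl4) without S-1 or S-4. Elavl4 was called in all 18 alternatives that tested it, Neurod1 in 15 of 18 and Rfx6 in 12 of 19, and none of the 3 turned its direction. The only reversal was that of Isl1, to -0.026 without S-2, in a range of -0.026 to 0.27 with single libraries left out. Pax4 had a fitted value only without the filter on low counts. Over all genes 1941 were called, against 2927 with limma-voom, 1285 with the term for Y-linked counts, 2930 among the libraries without them, 572 and 3107 at adjusted p thresholds of 0.01 and 0.1, and 847 to 2696 with single libraries left out (847 without S-3, 1018 without S-1, 1183 without S-4, 1204 without S-2 and 1273 without DDKO-4). The replicate block gave 1618 calls, 2 of them among the 9 genes (Neurod1 and Elavl4). Same-numbered libraries correlated at -0.104 to 0.0878 in their deviations, and none of the 4 S libraries correlated best with its own number, so that the numbers were not taken as pairs. No scaling moved the median of all genes by over 0.1. These genes were measured less precisely than most: the median standard error was 0.39 among the 2326 tested genes with means between 0.667 and 2.39 CPM, against 0.15 over all genes tested, and the parts of counting error and of spread between libraries in it were not tested.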
